A study of Ictidomys tridecemlineatus with 31 samples.

Results

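The genes described here make cholesterol or control its synthesis, followed in kidneys of the 13-lined ground squirrel, a hibernating rodent. They were chosen by symbol for what they are known to do, with earlier results of these data known. The 8 asked for were the enzymes Hmgcs1, Idi1, Fdft1, Sqle and Lss, and the regulators Insig1, Srebf1 and Srebf2. Of the 8, 7 have a row among the 12863 genes of the deposited table. No row there carries the symbol Fdft1, the gene of squalene synthase, which was therefore not analysed here.

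The data are of polyadenylated RNA sequenced from 31 kidneys, each from a separate animal in 1 of 6 states. A further summer active kidney, which the study excluded as an outlier, is not among these 31. SA (summer active, 5 kidneys) animals were warm and fattening, and SpD (spring dark, 5) animals were warm again after hibernation but still held in the dark hibernaculum. The other states come from the hibernation season: EAr (early in rewarming from torpor, 5), LAr (later in rewarming, 6), IBA (interbout aroused, warm for a short time between torpor bouts, 5) and Ent (cooling into the next torpor bout, 5). All animals carried implanted devices that recorded body temperature. No age or genotype is given in the labels, and 17 animals were female and 14 male.

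Libraries of 9 animals, 3 each of IBA, Ent and SpD, were made in experiment 1 with a TruSeq stranded kit, and those of the other 22 in experiment 2 with a Universal Plus kit. All SA, EAr and LAr libraries belong to experiment 2. K113 (LAr) and K137 (SA) stood apart from their states in the study's own analysis and are given separately below, so 29 kidneys enter the comparisons. The values are rlog values, a regularised log2 of normalised counts, from which the authors removed the mean difference between experiments. Depth is unknown, and levels of different genes are not on a common scale per transcript length. Of 16 marker genes of kidney cell types, 15 have a row.

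Cells build cholesterol from acetyl-CoA by way of mevalonate, isoprenoids, squalene and lanosterol. Transcription of these enzymes is driven mainly by SREBP-2, the product of Srebf2, whereas SREBP-1, the product of Srebf1, acts mainly on genes of fatty acid synthesis. Sterols in the endoplasmic reticulum make Insig proteins hold the SREBPs back, and when sterols fall the SREBPs are carried to the Golgi and cut there to release the active factor. The mRNA of Srebf1 or Srebf2 is thus not a measure of active SREBP, while Insig1 is itself a SREBP target.

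Hmgcs1 was higher in the active states, and the enzymes Idi1 and Sqle shared its direction. Srebf1 was lower in the mean of the active states. For it EAr and LAr were called against SA and SpD, whereas IBA and Ent were called against neither. For each gene the mean of SA and SpD (9 kidneys) was set against the mean of IBA, Ent, EAr and LAr (20 kidneys) in a limma model with sex and experiment as terms, and q is the p-value adjusted over all genes. Of the 7 members, 4 passed q under 0.05, against 33.4% of all genes. Of these 4, Hmgcs1, Idi1 and Sqle were higher in the active states, where 16.8% of all genes were higher, and Srebf1 was lower, where 16.6% were lower. Hmgcs1 alone of the 7 passed the stricter q under 0.001 that the study used, and 9.73% of all genes did. The median difference of the 7 was 0.24 log2, against -0.00024 over all genes.

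A test for any difference across the 6 states passed q under 0.001 for 1 of the 7 members, Hmgcs1, against 9.34% of all genes. It passed q under 0.05 for 2, Hmgcs1 and Srebf1, against 46.1% of all genes. The share of members called was thus above that of the table at 0.001 and below it at 0.05. With 7 genes, neither is read as a result about the members. RNA of a whole kidney cannot tell fewer cells of a type from less RNA in each cell, and this holds for every value below.

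**Figure D1:**
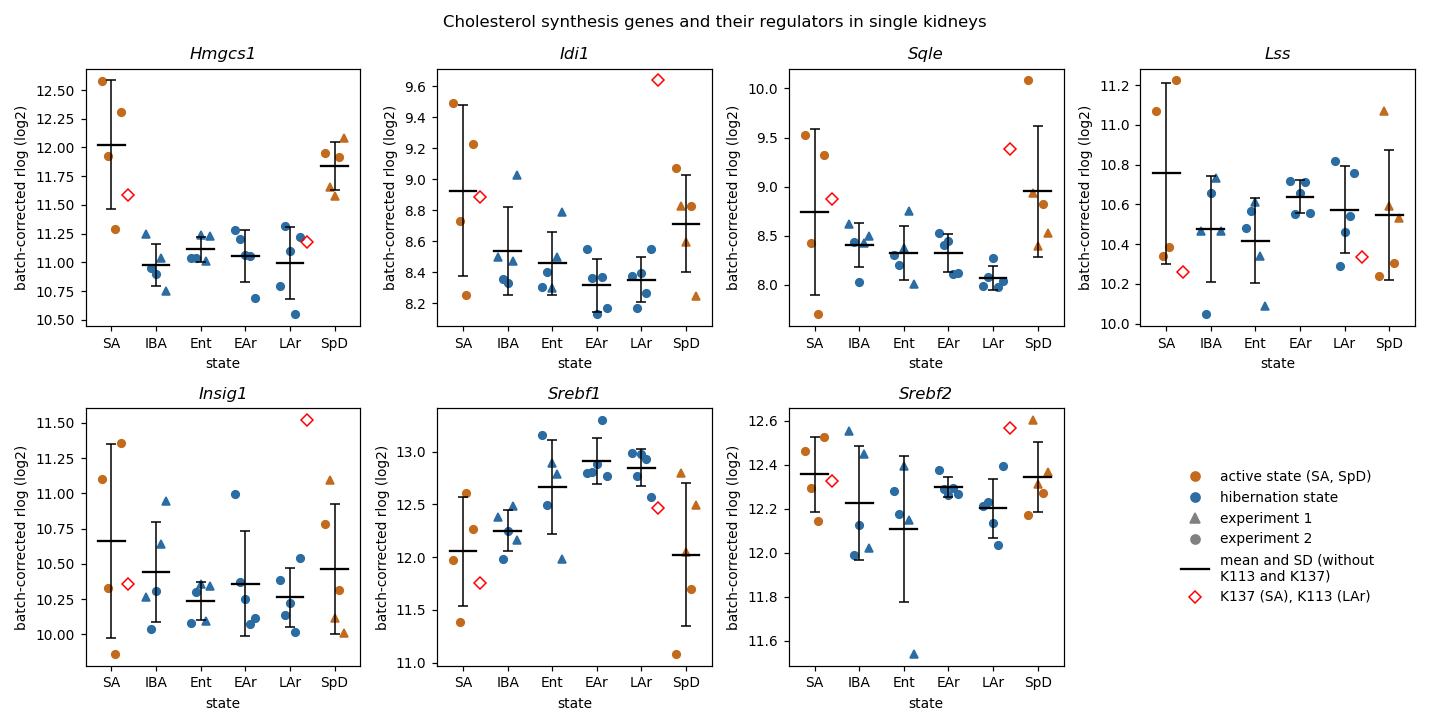
Batch-corrected rlog values (log2, y axis) of the 7 genes in each kidney by state (x axis), with the mean and SD of each state without K113 and K137, which are drawn as open diamonds. Hmgcs1 in SA and SpD lies above the hibernation states in 8 of 9 kidneys, and K113 lies above its state for Sqle, Idi1, Insig1 and Srebf2.

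Hmgcs1 encodes the cytosolic HMG-CoA synthase, which joins acetoacetyl-CoA and acetyl-CoA ahead of mevalonate. In SA its rlog values were 12.58 (K138), 11.93 (K139), 11.29 (K140) and 12.31 (K141). In SpD they were 11.66 (K3), 11.58 (K6), 12.08 (K9), 11.92 (K84) and 11.95 (K130). The SpD kidneys lay close together, whereas K140 lay far below the other SA kidneys.

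The hibernation states were lower. Within each, values of this and the other genes are given in the order K1, K4, K7, K104 and K171 for IBA, K2, K5, K8, K155 and K167 for Ent, K154, K156, K157, K158 and K165 for EAr, and K109, K111, K112, K115 and K116 for LAr. SA and SpD keep the order given above. Hmgcs1 read 11.24, 11.04, 10.75, 10.95 and 10.89 in IBA, and 11.24, 11.01, 11.23, 11.04 and 11.04 in Ent. It read 11.28, 11.20, 11.06, 11.05 and 10.69 in EAr, and 10.79, 11.31, 11.09, 10.55 and 11.22 in LAr. Of the 9 active kidneys, 8 lay above the highest of the 20 hibernation kidneys, and K140 fell just short of it.

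The active states exceeded the hibernation states by 0.90 log2 for Hmgcs1, or 1.86-fold (SE 0.11, 95% interval 0.66 to 1.13 log2, q = 3.6e-06). Ordered by mean, SA (12.03 ± 0.56, SD, n = 4) was followed by SpD (11.84 ± 0.21, n = 5), with a difference of 0.21 log2 that did not pass (q = 0.53). The step from SpD down to Ent (11.11 ± 0.11, n = 5) was 0.73 log2 (q = 0.012), and SpD exceeded EAr by 0.75 log2 (q = 0.012), which read 0.66 log2 (q = 0.079) without K130. Ent, EAr, LAr and IBA then followed within 0.14 log2 in the fit, and no neighbours among them differed beyond their spread. Within experiment 1, SpD exceeded IBA and Ent together by 0.69 log2 (3 against 6 kidneys). Within experiment 2 the active kidneys exceeded the hibernation kidneys by 0.98 log2 (6 against 14 kidneys).

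Idi1 encodes isopentenyl-diphosphate isomerase, which makes the allylic starter unit of isoprenoid chains. Its SA values were 9.49, 8.73, 8.25 and 9.23, with the lowest again in K140, and its SpD values were 8.83, 8.60, 8.24, 8.83 and 9.07. The 20 hibernation kidneys ran from 8.13 through a median of 8.37 to 9.03. Of the 9 active kidneys, 7 were above that median and 3 above the highest hibernation kidney, so the groups overlapped widely.

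Idi1 was 0.40 log2, or 1.32-fold, higher in the active states (SE 0.12, q = 0.010). In order of mean, SA (8.93 ± 0.55) came first, then SpD, IBA, Ent, LAr and EAr (8.31 ± 0.17), and no neighbours differed beyond their spread. EAr was below SA by a difference of -0.61 log2 (q = 0.025) and LAr by -0.58 log2 (q = 0.030). Without K138 these read -0.40 (q = 0.15) and -0.38 (q = 0.16), and without K141 they also missed 0.05 (q = 0.088 and 0.11). Leaving out K157 or K165 ended the call for EAr, and K111 or K115 that for LAr. The test across the 6 states (q = 0.074) passed 0.05 without K140 (q = 0.0083), K7 (q = 0.042) or K9 (q = 0.034). With all 31 kidneys the seasonal difference was 0.35 log2 (q = 0.060). Within experiment 1 SpD differed from IBA and Ent by -0.04 log2, whereas within experiment 2 the active kidneys were higher by 0.60 log2.

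Sqle encodes squalene epoxidase, which adds oxygen to squalene and is a control point of the sterol branch. In SA its values were 9.53, 8.42, 7.70 and 9.32, so that K140 was the lowest of all 29 kidneys. In SpD they were 8.94, 8.40, 8.53, 8.83 and 10.08, the last, K130, being the highest of all. Hibernation kidneys ranged from 7.98 to 8.75 with a median of 8.29. Active kidneys lay above that median in 8 of 9 cases and above the whole hibernation range in 5.

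Sqle was 0.57 log2, or 1.48-fold, higher in the active states (SE 0.18, 95% interval 0.20 to 0.93 log2, q = 0.016). The call was lost without K138 (0.43 log2, q = 0.066) and without K141 (0.46 log2, q = 0.055), both SA animals. The test across the 6 states (q = 0.086) passed 0.05 without K140 (q = 0.011). By mean, SpD (8.95 ± 0.67) and SA (8.74 ± 0.84) led, LAr (8.07 ± 0.12) was last, and no neighbours in the order differed beyond their spread. SpD exceeded LAr by 0.97 log2 (q = 0.031), which fell to 0.47 log2 (q = 0.34) without K130. Leaving out LAr K109, K111, K115 or K116, or SpD K84, also ended that call. Within experiment 1 SpD was 0.17 log2 above IBA and Ent, and within experiment 2 the active kidneys were 0.77 log2 above the hibernation kidneys.

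Lss encodes lanosterol synthase, which closes the sterol rings. It read 11.07, 10.34, 10.39 and 11.22 in SA and 11.07, 10.59, 10.53, 10.30 and 10.24 in SpD, against 10.05 to 10.82 (median 10.55) in hibernation. SA thus split into a high pair (K138, K141) and a low pair (K139, K140). The active states differed from hibernation by 0.12 log2 (95% interval -0.09 to 0.34, q = 0.38), no pair of states passed, and within experiment 2 the fitted sign turned (-0.01 log2, q = 0.95). Leaving out 1 kidney moved the seasonal value of Lss between 0.04 (without K141) and 0.19 log2, with q of 0.18 or more.

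Insig1, the sterol-dependent retention protein of the endoplasmic reticulum, read 11.10, 10.33, 9.86 and 11.35 in SA. In SpD it read 11.09, 10.12, 10.01, 10.31 and 10.78, and in hibernation it spanned 10.02 to 10.99 with a median of 10.28. Active kidneys were spread on both sides, with 3 above and 2 below the whole hibernation range. The seasonal difference of 0.24 log2 (95% interval -0.08 to 0.56) did not pass (q = 0.24), and no pair of states passed for Insig1. With 1 kidney left out it ran from 0.12 to 0.37 log2, the highest without K140 (q = 0.054).

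Srebf1, which encodes SREBP-1, was highest in the rewarming states EAr and LAr, and its calls between states were those of EAr and LAr. Its values in EAr were 12.80, 12.81, 12.88, 13.30 and 12.77, and in LAr they were 12.99, 12.77, 12.98, 12.94 and 12.57. In Ent it read 12.90, 12.79, 11.99, 13.16 and 12.49. EAr and LAr were tight, and Ent was spread by K8, its lowest kidney.

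IBA read lower for Srebf1, at 12.38, 12.49, 12.16, 11.98 and 12.25. SA read 11.97, 11.38, 12.60 and 12.26, and SpD read 12.80, 12.05, 12.50, 11.69 and 11.08. The active kidneys covered a wide range, with 8 of 9 below the hibernation median and 4 of 9 below the lowest hibernation kidney.

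Srebf1 was -0.63 log2 in the active relative to the hibernation states, or 1.55-fold lower (SE 0.15, 95% interval -0.95 to -0.31, q = 0.0030; q = 0.0065 across the 6 states). By mean, EAr (12.91 ± 0.22) led LAr, Ent, IBA and SA, and SpD (12.02 ± 0.67) was last, with no neighbours apart beyond their spread. In the fit IBA and SA were level, at -0.0050 log2 for IBA relative to SA (q = 0.99). EAr exceeded IBA by 0.86 log2 (q = 0.032) and SA by 0.86 log2 (q = 0.018), and LAr exceeded SA by 0.80 log2 (q = 0.024). SpD was below EAr by -1.09 log2 (q = 0.0079) and below LAr by -1.03 log2 (q = 0.011).

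Single kidneys carried several of the calls for Srebf1. Without K130 the values of SpD against EAr and LAr became -0.71 (q = 0.12) and -0.67 (q = 0.14). EAr against SA and LAr against SA lost their calls without K139 (q = 0.093 and 0.14). LAr against SA also missed without K138 or K115, and EAr against IBA without K104, K130, K154, K158 or K7. The season call held in all 29 such fits (-0.73 to -0.51 log2, highest q 0.014). Within experiment 1, however, SpD and the mean of IBA and Ent differed by -0.0030 log2, whereas in experiment 2 the active kidneys were at -0.93 log2.

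Srebf2, which encodes SREBP-2, passed no test between states. Its values lay between 11.54 (K8, Ent) and 12.60 (K3, SpD) in all 29 kidneys, and between 12.15 and 12.60 in the 9 active ones. The seasonal difference was 0.14 log2 (95% interval -0.03 to 0.31, q = 0.19), the test across the 6 states gave q = 0.41, and no pair of states passed.

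Between consecutive states of the yearly cycle, each pair written as the first state relative to the second, 3 of the 49 tests of members passed q under 0.05 and 0 passed 0.001 in limma. Hmgcs1 was lower in IBA than in SA by -1.07 log2, a 2.10-fold difference with no overlap of the groups (q = 0.0010, just above the stricter threshold). It was higher in SpD than in IBA by 0.86 log2, or 1.82-fold, also without overlap (q = 0.0029). Srebf1 was lower in IBA than in LAr by -0.80 log2, again without overlap (q = 0.043). That last call was lost in 13 of the 29 fits that left out a kidney (values -0.90 to -0.68, highest q 0.11). It was also lost in 3 of 8 fits with other settings (highest q 0.11), among them that with all 31 kidneys (q = 0.078).

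The members' counts stand beside shares of all genes called at 0.05 in the same pairs. For IBA/SA it was 1 of 7 members against 22.9%, for IBA/LAr 1 against 18.0%, and for SpD/IBA 1 against 11.9%. It was 0 of 7 for Ent/IBA against 13.1%, for EAr/Ent against 0.257%, for LAr/EAr against 0.575% and for SA/SpD against 10.5%. At 0.001, where no member passed, the shares of all genes in the consecutive pairs were 3.15% (IBA/SA), 0.746% (Ent/IBA), 0.132% (EAr/Ent), 0.295% (LAr/EAr), 1.43% (IBA/LAr), 1.25% (SpD/IBA) and 0.0544% (SA/SpD). Across the torpor bout and the start of rewarming, then, no member was called and few genes of the table were.

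The remaining pairs set states that are not neighbours in time. Members passed 0.05 in 3 of 7 cases for EAr/SA (24.1% of all genes), 3 for LAr/SA (27.4%), 3 for SpD/LAr (19.1%) and 2 for SpD/EAr (19.2%). It was 1 of 7 for Ent/SA (14.8%), EAr/IBA (17.7%) and SpD/Ent (10.6%), and 0 for LAr/Ent (0.762%). Hmgcs1 passed 0.001 in EAr/SA (-0.96 log2, q = 8.4e-04, 4.49% of all genes) and LAr/SA (-1.04 log2, q = 3.6e-04, 5.47%). In all, 17 of 105 tests passed 0.05, with 8 for Hmgcs1, 6 for Srebf1, 2 for Idi1, 1 for Sqle and 0 for Insig1, Lss and Srebf2. The 8 of Hmgcs1 are the 8 pairs of an active with a hibernation state, and these pairs share their groups.

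Other enzymes of the pathway were read from a list of 14. Across the season 8 of the 14 passed q under 0.05, all higher in the active states, against 33.4% of all genes called and 16.8% called higher, and the median of the 14 was 0.18 log2 against -0.00024 over all genes. With the 4 member enzymes, 11 of 18 were called higher, 0 were called lower and 15 had a positive difference. Msmo1, the methyl sterol oxidase, was higher by 0.93 log2 (1.91-fold, q = 9.9e-06), and Ebp, the sterol isomerase, by 0.48 log2 (1.40-fold, q = 3.5e-06). Both passed 0.001 across the 6 states as well (q = 1.6e-04 and 3.6e-05).

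The other called enzymes, named after their values were seen, were Fdps, Cyp51a1, Tm7sf2, Nsdhl, Hsd17b7 and Dhcr7, with differences from 0.16 log2 (Nsdhl) to 0.71 log2 (Hsd17b7). Acat2, Mvk, Pmvk, Mvd, Ggps1 and Sc5d did not pass, with values from -0.07 to 0.13 log2. Among the enzymes listed, the called ones thus stood at Hmgcs1 and, apart from Ggps1, Lss and Sc5d, from Idi1 onward, and the steps from Mvk to Mvd were not called. For Msmo1 the mean of SA was 11.20 ± 0.68 (SD, 4 kidneys) and that of IBA 10.04 ± 0.26 (5 kidneys), with overlap. The fitted difference of IBA from SA was -1.27 log2 (q = 6.2e-04). Ebp went from 9.60 ± 0.22 to 8.81 ± 0.14 without overlap, a fitted difference of -0.84 log2 (q = 2.8e-05).

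**Figure D2:**
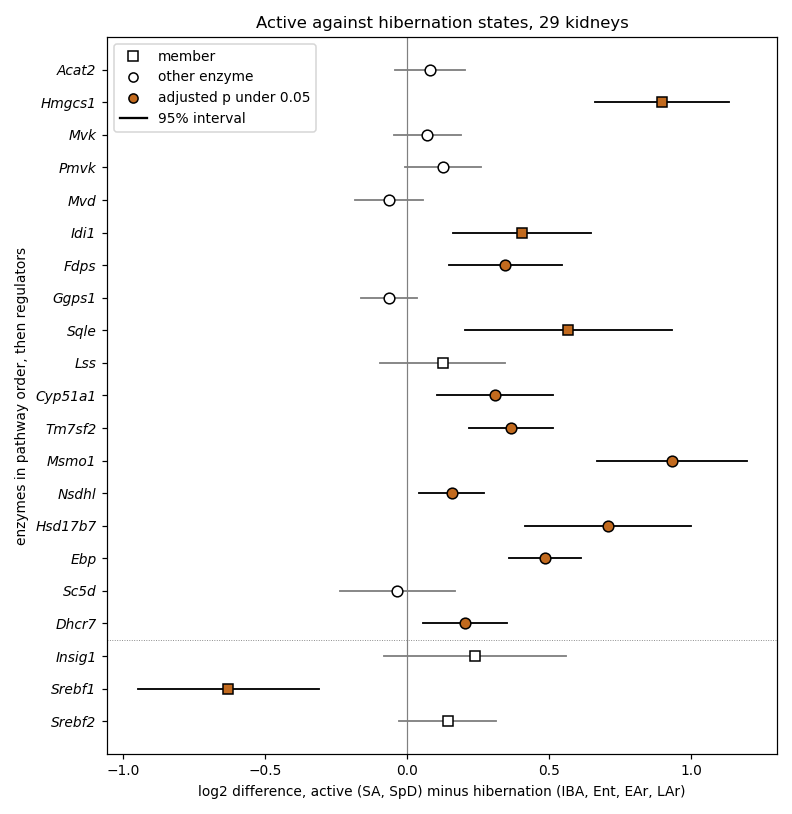
Fitted log2 difference of active minus hibernation states (x axis) with its 95% interval for the 18 enzymes in pathway order and then Insig1, Srebf1 and Srebf2 (y axis), squares for members and filled symbols for q under 0.05. Msmo1 and Hmgcs1 stand farthest to the right at 0.93 and 0.90, and Srebf1 stands farthest to the left at -0.63.

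A further list holds genes whose proteins retain, carry or cut the SREBPs. Of 6 (Scap, Insig2, Mbtps1, Mbtps2, Rnf139 and Rnf145), 1 passed q under 0.05 across the season, against 33.4% of all genes. It was Mbtps1, the site-1 protease, at -0.07 log2 (q = 0.042). Scap, the escort of the SREBPs, stood at 0.16 log2 (q = 0.20). Rnf145, a ubiquitin ligase that acts on Scap, passed 0.001 across the states (q = 7.9e-06). It was highest in IBA (10.50 ± 0.06, n = 5), 0.84 log2 above LAr (q = 9.7e-06), and Ent was below IBA by -0.55 log2 (q = 4.8e-04), with no overlap in either pair.

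The list of SREBP targets of fatty acid synthesis held 10 genes. Across the season 4 of 10 passed, a share near the 33.4% of all genes, with 1 higher (Acss2) and 3 lower (Acly, Elovl6 and Lpin1) in the active states, with a list median of -0.02 log2. Acss2, which makes acetyl-CoA from acetate, was 0.26 log2 higher in the active states (q = 0.0025) and passed 0.001 across the states (q = 8.0e-05). It fell by 0.92 log2 from SA to IBA (q = 1.8e-05). Acly, ATP citrate lyase, was at -0.34 log2 (q = 0.012), Elovl6, a fatty acid elongase, at -0.36 log2 (q = 0.0071), and Lpin1, a phosphatidate phosphatase, at -0.26 log2 (q = 0.018).

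Of 11 genes of sterol transport and sensing, 10 have a row, and 3 passed across the season, near the 33.4% of all genes. These were Osbpl1a at 0.16 log2 (q = 0.049), Nr1h2 at -0.15 log2 (q = 0.0016) and Npc2 at -0.28 log2 (q = 0.0049). Nr1h2 encodes an oxysterol receptor and Npc2 a lysosomal carrier of cholesterol. Mylip, a ubiquitin ligase induced by the oxysterol receptors, passed 0.001 across the states (q = 2.2e-04). It was higher in LAr (11.02 ± 0.20, n = 5) than in EAr (10.29 ± 0.16, n = 5) by 0.77 log2 without overlap (q = 2.4e-04), in a pair where 0 of the 7 members passed.

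The members were compared with each other across the 29 kidneys. Of 21 pairs of members, 12 had q under 0.05 by Pearson's r (permutation test, two-sided, adjusted over the 21), 9 positive and 3 negative, and 10 passed by Spearman's rho as well. The 3 negative pairs were those of Srebf1 with Hmgcs1, Idi1 and Sqle. These correlations are over animals of all 6 states.

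Insig1 and Idi1 moved together most closely (r = 0.79, permutation p = 1e-05, the smallest these permutations can give, q = 2.1e-04; rho = 0.70, q = 8.4e-04). After each state's mean was removed r was 0.81, and it was 0.70 within experiment 1 (9 kidneys) and 0.82 within experiment 2 (20). Without the 2 kidneys farthest from the median of Insig1, r was 0.67.

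Sqle and Idi1 gave r = 0.75 (permutation q = 2.8e-04; rho = 0.56, q = 0.0090), 0.70 within states, 0.01 within experiment 1, 0.85 within experiment 2 and 0.63 without the 2 farthest kidneys. Hmgcs1 and Sqle gave r = 0.70 (permutation q = 2.8e-04; rho = 0.52, q = 0.015), 0.60 within states, 0.16 and 0.78 within experiments 1 and 2, and 0.55 without the 2 farthest. Hmgcs1 and Idi1 gave r = 0.67 (permutation q = 0.0010; rho = 0.43, q = 0.048), with 0.47 within states, -0.44 in experiment 1, 0.91 in experiment 2 and 0.42 without the 2 farthest. The relations among Hmgcs1, Sqle and Idi1 thus did not hold within experiment 1. That experiment gives 9 kidneys of IBA, Ent and SpD, whereas experiment 2 gives 20 from all 6 states. The r values of the 2 experiments are thus of unlike sets of states.

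Insig1 also went with other members. With Sqle it gave r = 0.64 (permutation q = 0.0013; rho = 0.45, q = 0.035), 0.64 within states, 0.31 and 0.73 within experiments 1 and 2, and 0.61 without the 2 farthest kidneys. With Lss it gave r = 0.62 (permutation q = 0.0012; rho = 0.47, q = 0.031), 0.61 within states, 0.55 and 0.65 within the experiments, and 0.40 without the 2 farthest. With Hmgcs1 it gave r = 0.47 (permutation q = 0.020; rho = 0.31, q = 0.15) and 0.46 within states, but -0.32 within experiment 1, 0.71 within experiment 2 and 0.15 without the 2 farthest. That relation turned between experiments and rested on the 2 farthest kidneys.

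Lss and Srebf2 rose and fell together (r = 0.69, permutation q = 3.1e-04; rho = 0.61, q = 0.0063), at 0.67 within states, 0.81 within experiment 1, 0.72 within experiment 2 and 0.65 without the 2 farthest. Hmgcs1 and Srebf2 gave r = 0.42 (permutation q = 0.040; rho = 0.54, q = 0.012), with 0.34 within states, 0.34 and 0.62 within the experiments and 0.30 without the 2 farthest. Srebf1 and Idi1 were opposed (r = -0.62, permutation q = 0.0016; rho = -0.57, q = 0.0090), at -0.40 within states, -0.46 and -0.64 within the experiments and -0.67 without the 2 farthest. Srebf1 and Hmgcs1 were opposed over all kidneys (r = -0.54, permutation q = 0.0058; rho = -0.42, q = 0.048), but within states r was -0.23 and within experiments 1 and 2 it was 0.10 and -0.66, with -0.56 without the 2 farthest. For Srebf1 and Sqle (r = -0.54, permutation q = 0.0067; rho = -0.40, q = 0.051) the sign turned between experiments, from 0.63 in experiment 1 to -0.66 in experiment 2, with -0.31 within states and -0.25 without the 2 farthest.

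**Figure D3:**
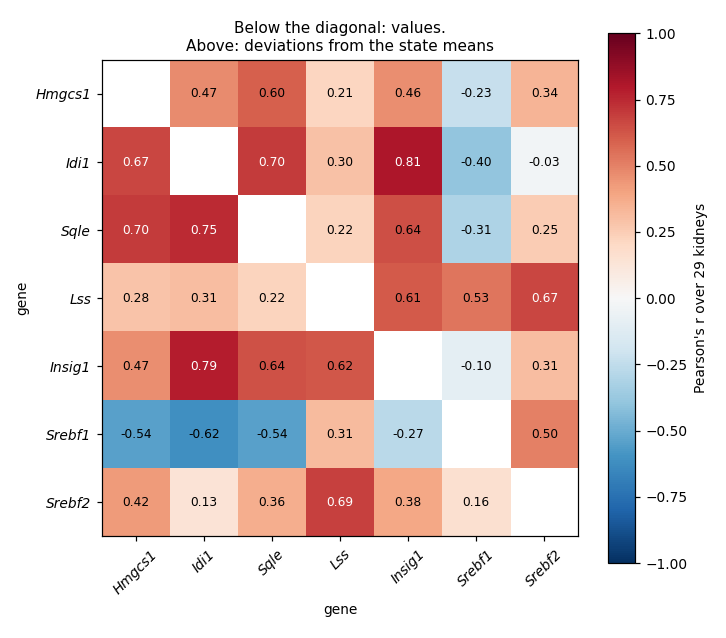
Pearson's r between members (both axes are genes) over 29 kidneys, for the values below the diagonal and for deviations from the state means above it. Insig1 with Idi1 is high on both sides (0.79 and 0.81), while Srebf1 with Hmgcs1 goes from -0.54 to -0.23.

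The genes nearest to each member, the 3 of highest r over the 29 kidneys, were often of the same pathway. For Idi1 they were Fdps (r = 0.92), Cyp51a1 (0.92) and Cycs, cytochrome c (0.81). For Insig1 they were Cyp51a1 (0.81), Fdps (0.79) and Idi1 itself (0.79). For Lss they were Acat2 (0.70), Dhcr7 (0.69) and Fads2, a fatty acid desaturase (0.69). Once state means were removed, the lowest of these r was 0.65.

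Hmgcs1 was nearest to Mei1 (0.88), Dnah17, an axonemal dynein chain (0.87), and Msmo1 (0.87), which fell to between 0.57 and 0.65 without the state means. Sqle was nearest to Agtr1, an angiotensin receptor (0.86), Tek, an angiopoietin receptor (0.86), and Arhgef6 (0.86), and these read 0.75 to 0.78 without K130. Srebf1 was nearest to Smyd5 (0.89), Slc27a3 (0.87) and Chst11 (0.87). Srebf2 was nearest to Hcfc1 (0.86), Ganab (0.83) and Hipk2 (0.83), for which r within experiment 2 was 0.37, 0.40 and 0.53. No sterol enzyme was among the nearest genes of Sqle, Srebf1 or Srebf2.

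The members varied much between animals of 1 state. The residual SD of the fit was 0.47 log2 for Sqle, 0.41 for Insig1, 0.41 for Srebf1, 0.31 for Idi1, 0.30 for Hmgcs1, 0.28 for Lss and 0.21 for Srebf2. The median over all genes was 0.16, and the 7 lay between the percentiles 72.1 (Srebf2) and 96.2 (Sqle). The SA kidneys were the most spread, with a median SD of the 7 genes of 0.55, against 0.18 to 0.33 in the other 5 states.

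Within each of the 4 SA kidneys kept, the deviations of 5 members ran in the same direction. K137, which is not counted in the SA mean, had 1 of the 5 above that mean and 4 below it. In K138 and K141 all 5 of Hmgcs1, Idi1, Sqle, Lss and Insig1 lay above the SA mean, by 0.53 and 0.46 log2 on average, and in K139 and K140 all 5 lay below it, by means of -0.27 and -0.72. Srebf1 did not follow them, being 0.55 above the SA mean in K140. Outside SA, all 5 genes lay above the state mean in K154 (EAr, 0.28 log2 on average). They all lay below it in K165 (EAr, -0.21) and K115 (LAr, -0.18). This mean over the 5 genes was computed after the data were seen.

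**Figure D4:**
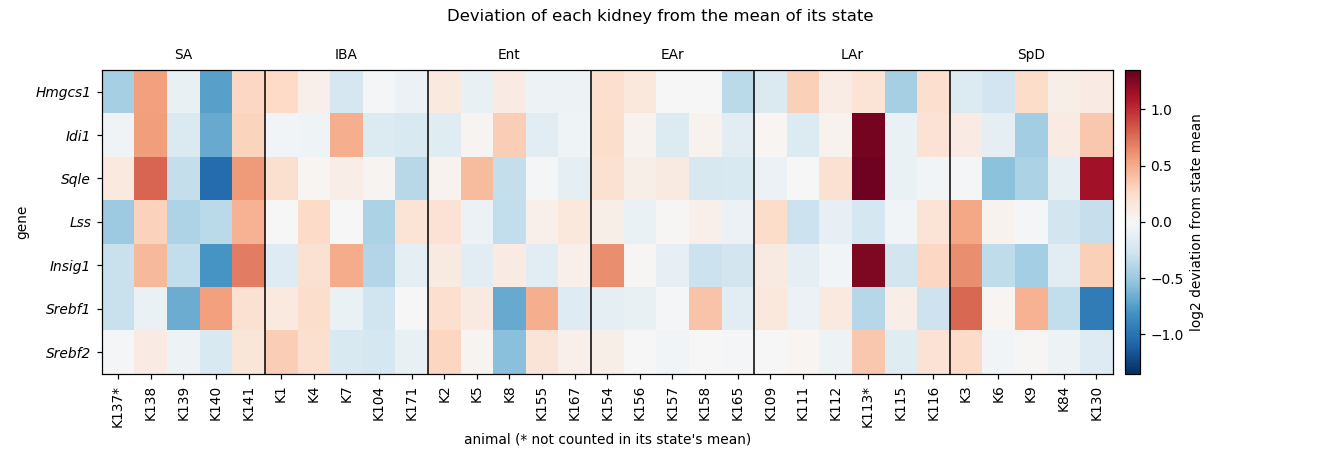
Log2 deviation (colour) of each kidney (x axis, ordered by state) from the mean of its state for the 7 genes (y axis), where K113 and K137 are not counted in the means. K113 is 1.32 above LAr for Sqle, and K138 and K140 of SA stand on opposite sides of the mean.

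K113 lay far from the other LAr kidneys for several members. Sqle read 9.39 in it against 7.98 to 8.27 in the other LAr kidneys, Insig1 11.52 against 10.02 to 10.54, and Idi1 9.64 against 8.17 to 8.55. For Insig1 and Idi1 no other kidney of the 31 was higher. Srebf2 (12.57) was above the other LAr kidneys too, Srebf1 (12.46) was below them, and Hmgcs1 (11.18) and Lss (10.34) were within their range. Marker means of K113 also stood apart. That of the 2 fibroblast genes, Plac8 and S100a4, was 9.002 against 7.18 to 7.56 in the other LAr kidneys, and that of the 2 proximal tubule genes was 13.84 against 14.78 to 15.05. Their part in the values of K113 was not tested.

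K137 was unlike K113. It lay within the range of the other SA kidneys for 6 of 7 genes, with Hmgcs1 at 11.58, Sqle at 8.88, Idi1 at 8.88, Insig1 at 10.36, Srebf1 at 11.75 and Srebf2 at 12.33, and below them for Lss (10.26). Its fibroblast marker mean was 8.94, against 7.46 to 8.32 in the other SA kidneys.

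Markers of kidney cell types were read in the same kidneys. The mean rlog of 2 proximal tubule genes, Slc27a2 and Lrp2, was 13.72 in K130, 13.84 in K113 and 14.00 in K137, against 14.05 to 15.48 in the other kidneys. Marker genes were called across the season in 5 of 15 cases (Umod, Aqp2, Atp6v0d2, Nrp1 and Kdr), against 33.4% of all genes. All 5 were higher in the active states, by 0.31 to 0.70 log2, where 16.8% of all genes were called higher. Of the 15, 0 were called lower, and the proximal tubule genes stood at -0.07 (q = 0.73) and -0.01 log2 (q = 0.98). K130 also had the highest mean of 2 loop of Henle genes (16.53) and the lowest of the distal convoluted tubule gene Slc12a3 (11.54). Its means of 2 principal cell genes (14.44) and 2 endothelial genes (11.45) were the highest as well. Correlations with the members were computed for the proximal tubule mean only.

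Over the 29 kidneys the proximal tubule mean gave r = 0.60 with Srebf1 (permutation q = 0.0053; rho = 0.41, q = 0.096), -0.46 with Idi1 (permutation q = 0.031; rho = -0.47, q = 0.079) and -0.44 with Sqle (permutation q = 0.031; rho = -0.27, q = 0.22). Without K130 these were 0.45, -0.37 and -0.17, and without the 2 kidneys farthest from the marker median 0.34, -0.32 and -0.08. Within experiments 1 and 2 they were 0.42 and 0.66 for Srebf1, -0.79 and -0.36 for Idi1, and 0.24 and -0.58 for Sqle. Hmgcs1 gave -0.02 (permutation q = 0.92; rho = 0.12, q = 0.52), with 0.84 in experiment 1, -0.27 in experiment 2 and 0.30 without the 2 farthest. In all, 5 of the 7 members passed by Pearson's r and 0 by both measures, and the part of cell composition in the seasonal differences was not tested.

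No member was called between the sexes. Males minus females gave -0.07 to 0.05 log2, and 0 of 7 were called (lowest q 0.92), against 0.218% of all genes. The term for experiment called 0 of 7 members and 0.0389% of all genes, which says little, since the authors' correction had set every gene to the same mean in both experiments.

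The states held in both experiments let the seasonal differences be set side by side. From IBA and Ent to SpD, Sqle differed by 0.17 log2 in experiment 1 (3 against 6 kidneys) and 1.21 in experiment 2 (2 against 4). Idi1 differed by -0.04 and 0.60, and Srebf1 by -0.0030 and -1.08. Hmgcs1 differed by 0.69 and 0.95, higher in both. The 2 SpD kidneys of experiment 2 were K130 and K84. For Sqle they read 10.08 and 8.83, against an IBA and Ent mean of 8.24 in that experiment. For Srebf1 they read 11.08 and 11.69 against 12.47, and for Idi1 9.07 and 8.83 against 8.35.

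The difference between experiments was tested as an interaction in limma. For SpD against IBA 0 of 7 members passed (q = 0.44 to 0.96), where 0 of all genes, or 0%, passed as well although 1325 had an unadjusted p under 0.05. The lowest unadjusted p among the members were 0.033 (Idi1) and 0.058 (Sqle). For Ent against IBA 0 of 7 passed against 0.163% of all genes. An interaction of sex with season passed for 0 of 7 and for 0 genes in all, with 595 at an unadjusted p under 0.05. The difference between experiments had an SE of 0.32 log2 for Idi1 (0.77 log2) and 0.48 log2 for Sqle (1.01 log2), with 2 or 3 kidneys a state in each experiment.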

How the data were processed

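The deposited table holds batch-corrected rlog values on the log2 scale, per the file headers and the study's methods. The authors used cutadapt for trimming, HISAT2 to take out mitochondrial reads, Salmon with HiC_Itri_2 transcripts and tximport to sum by gene. The authors kept genes whose rlog was 7 or more in at least 4 of 5 animals of a group, and the authors' DESeq2 rlog step and limma's batch removal gave the final values. Every gene has the same mean in both experiments, so a state held by 1 experiment may be shifted. No counts were used, so depth and counting error are unknown, and no count test was run.

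For this report a linear model with terms for state, for sex and for experiment was fitted in limma 3.58.1 (R 4.3.3) to all 12863 genes of 29 kidneys. Variances were moderated by empirical Bayes, with a trend on intensity, and p-values were adjusted per contrast by Benjamini-Hochberg. Differences given with a q are fitted ones, so they can differ from the gap between printed means. The code was tested on simulated data. In the fit that dropped the term for experiment, degrees of freedom spent on the authors' correction are not counted. Correlations used 100000 permutations (scipy 1.17.1), two-sided. The text names all members, the 3 genes of highest r with each, and every gene of 4 pathway lists with q under 0.001 across states. Members and lists were chosen with earlier results of these data known, and some listed genes are not reported here. Every animal is 1 library, so p-values measure spread between animals. Sequences were not used here. The fit was repeated in all 31 kidneys, in experiment 2 alone, dropping the sex term, the experiment term or the trend, weighting animals, centring on medians, keeping means of 8 or more, at 0.01, and leaving out each kidney.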

Additional observations from a re-analysis of the deposited data

Results flagged for a closer look

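The 7 genes in 6 states gave 42 groups of 5 or 6 kidneys, K113 and K137 included. In 6 of them a kidney's gap to its nearest neighbour was large for the range of its group. Chance gives about 1 in 20 for a single group, but the groups share animals and correlated genes. K113 had also been set apart by the study beforehand, so the 6 are not set against that rate. K113 of LAr accounted for 3 of them, with 9.39 for Sqle, 11.52 for Insig1 and 9.64 for Idi1, and its proximal tubule marker mean of 13.84 was below that of every other LAr kidney. K7 of IBA read 9.03 for Idi1, K158 of EAr 13.30 for Srebf1, and K8 of Ent 11.54 for Srebf2. What sets these kidneys apart was not tested.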

How the results depend on the processing

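The 4 calls at q under 0.05 across the season were 3 or 4 in every alternative, and Hmgcs1 kept its call in all of them (0.79 to 1.02 log2 over the fits that left out a kidney). The count passing 0.001 across the season, 1 in the report, was 2 with experiment 2 only and 2 at a threshold of 0.01. It ran from 1 to 3 when a kidney was left out, reaching 3 without K140 and 2 without K3 or K8. Across the 6 states it was 0 with experiment 2 only, 2 at 0.01 and 1 in every fit with a kidney left out, and at 0.05 the count ran from 2 to 4 (4 without K140). In consecutive pairs at 0.001 the count of 0 became 1 without the term for experiment, without the term for sex, among genes with a mean of at least 8 and with median centring, and 2 at 0.01. With a kidney left out it ran from 0 to 2 (2 without K140, 1 without K115, K130 or K6), and at 0.05 from 2 to 4. The seasonal difference of Lss turned to -0.013 log2 with experiment 2 only. For single pairs, the calls of Hmgcs1 in SpD/Ent were lost with animal weights (q = 0.076) and experiment 2 only (q = 0.052), and that in SpD/EAr with animal weights (q = 0.062). Of 8 fits with other settings, Srebf1 lost its call in 2 for EAr/IBA (highest q 0.089) and in 3 for IBA/LAr (highest q 0.11). Sqle lost SpD/LAr in 2 (highest q 0.13), and Idi1 lost EAr/SA in 1 (q = 0.061) and LAr/SA in 1 (q = 0.24). The cause of these changes was not tested. No paired analysis was possible because no 2 states share a replicate number. Depth is unknown, so precision rests on 4 to 5 kidneys a state.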
